A study of Mus musculus with 5 samples.

Results

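The troponin genes were examined in thoracic aorta of mice that express a dominant negative human PPARγ with the P467L mutation in smooth muscle. The members are the 8 genes that encode the subunits of the troponin complex: Tnnc1 and Tnnc2, Tnni1, Tnni2 and Tnni3, and Tnnt1, Tnnt2 and Tnnt3. They were read by every probe set (a group of short probes for one transcript) of the Affymetrix mouse array that the platform's annotation assigns to one gene only. All 8 genes were represented, by 12 of the 45037 probe sets compared. Tnni2 and Tnnt2 had 3 probe sets each and the other 6 genes had 1.

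RNA came from male C57BL/6 mice. The P467L transgene was driven by the smooth muscle myosin heavy chain promoter, and the controls were littermates without the transgene. There were 3 P467L and 2 non-transgenic arrays, each made from RNA pooled over 6 to 8 aortas, so the spread between arrays is between pools and not between single animals. The age of the mice was not given in the sources used here. The whole aorta was extracted, so in these bulk samples a change in the number of cells of a type and a change in RNA per cell cannot be told apart.

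Troponin is the calcium switch of striated muscle. Troponin C binds calcium, troponin I holds actin and myosin apart at rest, and troponin T anchors the complex to tropomyosin on the thin filament. Tnnc1 encodes the troponin C of heart and slow skeletal muscle and Tnnc2 that of fast skeletal muscle. Tnni3 and Tnnt2 encode the cardiac forms of troponin I and T, Tnni1 and Tnnt1 the slow skeletal forms, and Tnni2 and Tnnt3 the fast skeletal forms. Smooth muscle is classically described as contracting without troponin, through myosin light chain kinase.

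Of the 8 genes, Tnnc1 and Tnnt2 were higher on every P467L array than on both non-transgenic arrays, by 4.79 log2 units (SE 0.24) and 1.02 (SE 0.10). The remaining troponin genes gave differences between -0.23 and 0.25, and their groups overlapped. The promoter windows of Tnnc1 and Tnnt2 are shown because these are the troponin genes that were higher, with that of Tnni3, the third subunit of the cardiac complex, beside them. Each is the 250 bases before the annotated start, 5′ to 3′ on the gene's own strand, from RefSeq on GRCm38.p6. The Tnnc1 window is chr14:31208062-31208311 on the plus strand, the Tnnt2 window chr1:135836084-135836333 on the plus strand and the Tnni3 window chr7:4522529-4522778 on the minus strand. Capitals mark the M-CAT element, CATTCC on either strand, a site bound by TEAD factors that was described in the cardiac troponin T promoter.
Tnnc1: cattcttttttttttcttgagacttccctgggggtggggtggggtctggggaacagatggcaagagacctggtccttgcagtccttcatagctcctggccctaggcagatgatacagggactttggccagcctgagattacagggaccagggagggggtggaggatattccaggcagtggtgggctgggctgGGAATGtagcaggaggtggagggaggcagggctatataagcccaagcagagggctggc
Tnnt2: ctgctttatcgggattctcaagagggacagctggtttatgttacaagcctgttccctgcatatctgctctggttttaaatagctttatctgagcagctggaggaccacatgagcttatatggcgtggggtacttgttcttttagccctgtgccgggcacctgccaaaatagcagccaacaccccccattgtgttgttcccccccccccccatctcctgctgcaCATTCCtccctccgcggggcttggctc
Tnni3: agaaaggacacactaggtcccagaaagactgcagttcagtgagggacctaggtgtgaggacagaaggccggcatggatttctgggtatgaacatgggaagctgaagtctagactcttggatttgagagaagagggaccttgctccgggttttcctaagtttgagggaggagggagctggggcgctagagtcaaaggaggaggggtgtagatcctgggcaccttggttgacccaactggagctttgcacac

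The M-CAT letters occurred 1 time in the Tnnc1 window, from base -58 to base -53 before the start on the opposite strand, and 1 time in the Tnnt2 window, from -27 to -22. They were not in the windows of Tnnc2, Tnni1, Tnni3 and Tnnt1, nor in that of a second annotated start of Tnnt2. RefSeq windows were at hand for 6 of the 8 genes. Across all 32851 windows of the same length 12.6% held CATTCC on some strand. The GATA element, searched as AGATAA, occurred in the first Tnnt2 window, from -166 to -161, and in 9.99% of all windows. The E-box CANNTG was in the windows of all 6 genes and in 66.2% of all windows. The CArG box, the MEF2 element, the nuclear receptor half-site AGGTCA and its direct repeat AGGTCANAGGTCA, a PPAR element, were found in none of the troponin windows, and in 1.47%, 2.92%, 14.0% and 0.0335% of all windows. TATAAA occurred in the Tnnt1 window alone among the troponin windows and in 12.4% of all windows. These matches describe letters within 250 bases and are not evidence of binding.

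The arrays had similar distributions. Median log2 values were 6.25 on both non-transgenic arrays and lower on P467L replicates 1 to 3, at 6.17, 6.23 and 6.23. A pair of arrays stood apart from the rest. In P467L replicate 1, 842 probe sets read lower than on any other array by 1 log2 unit or more, and in non-transgenic replicate 2, 56 read higher by as much. The 11 stomach markers summed to 35761 in that array against 3350 to 5864 in the others, as linear RMA values. Acta2, Tagln and Myh11, structural genes of contractile smooth muscle, read 13.9 to 14.8 log2 on every array. These genes mark smooth muscle and not the aorta in particular. To place dim values, 44 probe sets of olfactory receptor genes, which are mostly silent outside the nose, had a median of 4.42 and a 95th percentile of 5.97. Probe sets differ in their own background, so this mark is a rough guide. In 4 of the 12 troponin probe sets both group means lay at or below it.

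Troponin C of heart and slow muscle, Tnnc1, gave the largest difference of all 45037 probe sets in size; the next was 3.13 log2 units. Its probe set, 1418370_at, read 6.40 and 5.75 on the non-transgenic arrays and 10.98, 10.98 and 10.63 on P467L replicates 1 to 3. The groups were separated by a gap of 4.23, against a range of 0.65 within the non-transgenic and 0.35 within the P467L arrays. The non-transgenic values lay on either side of the olfactory receptor mark, and their mean stood above 47.5% of all probe sets. The P467L mean stood above 95.1%. As measured the ratio was 27.6-fold. Without P467L replicate 1 the difference was 4.73, and without non-transgenic replicate 2 it was 4.46, so the difference was about as large without either of the arrays that stood apart. One probe set reads this gene, so no second set of probes was available for comparison. The family was chosen with this difference known, and it is given here as a description.

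The fast skeletal troponin C, Tnnc2, did not show this separation. It read 6.70 and 5.65 on the non-transgenic arrays and 6.11, 5.92 and 5.82 on the P467L arrays. All P467L values lay between the non-transgenic ones, with a difference of -0.23 (SE 0.34). Non-transgenic replicate 1 decided its sign: the difference was 0.30 without that array and -0.75 without the other non-transgenic array.

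Cardiac troponin T, Tnnt2, was read by 3 probe sets. The brightest, 1424967_x_at, gave 8.43 and 8.24 on the non-transgenic and 9.35, 9.24 and 9.48 on the P467L arrays, a difference of 1.02 (SE 0.10) or 2.03-fold. The next, 1418726_a_at, gave 8.17 and 8.11 against 9.11, 9.01 and 9.32, a difference of 1.01 (SE 0.11) or 2.01-fold. On each array the first read 0.13 to 0.26 above the second. Both of these probe sets placed the P467L arrays in the same order, with replicate 3 highest and replicate 2 lowest. In Tnnc1, replicate 3 was the lowest of the P467L arrays. The third, 1440424_at, read 4.58 and 4.40 against 4.40, 4.35 and 4.40, below the olfactory receptor mark on all arrays, with overlapping groups and a difference of -0.11 (SE 0.07). The suffix _x_at denotes probes that may match other sequences and _a_at probes shared by transcripts of one gene. The mean difference of the 3 probe sets was 0.64.

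**Figure D1:**
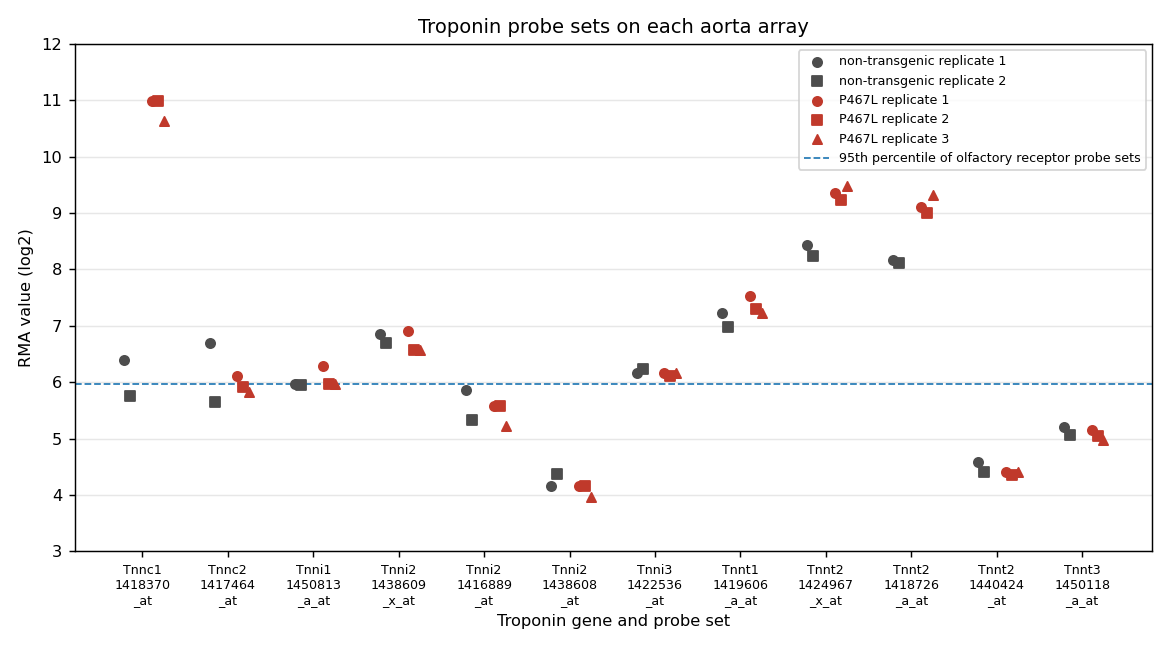
RMA values (log2, vertical axis) of the 12 troponin probe sets on each of the 5 arrays; gray points are non-transgenic, red points P467L, and marker shapes give the replicate. The dashed line is the 95th percentile of olfactory receptor probe sets, 5.97. P467L points stand clear of the non-transgenic ones for Tnnc1 (10.63 to 10.98 against 5.75 and 6.40) and for 2 of the 3 Tnnt2 probe sets.

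The other troponin T genes differed little. Slow skeletal Tnnt1 read 7.22 and 6.98 on the non-transgenic and 7.53, 7.30 and 7.22 on the P467L arrays. The highest non-transgenic value equalled the lowest P467L value, and the difference was 0.25 (SE 0.13). Fast skeletal Tnnt3 read 5.21 and 5.06 against 5.15, 5.04 and 4.97, below the olfactory receptor mark throughout, with a difference of -0.08 (SE 0.08).

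None of the troponin I genes separated the groups. Cardiac Tnni3 read 6.17 and 6.23 on the non-transgenic arrays and 6.17, 6.11 and 6.17 on the P467L arrays, a difference of -0.05 (SE 0.04) with a 95% interval from -0.17 to 0.07. Its level was near the highest olfactory receptor mean, 6.17. Slow skeletal Tnni1 read 5.97 and 5.95 against 6.28, 5.97 and 5.97. Only P467L replicate 1 was above the rest, and the difference was 0.11 (SE 0.12). The probe sets of fast skeletal Tnni2 gave -0.09 (SE 0.13), -0.13 (SE 0.21) and -0.17 (SE 0.10), and the brightest, 1438609_x_at, ran from 6.57 to 6.90 over the 5 arrays. Of the 3 subunits of the cardiac complex, the transcripts of C and T were higher on all P467L arrays and that of I overlapped.

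**Figure D2:**
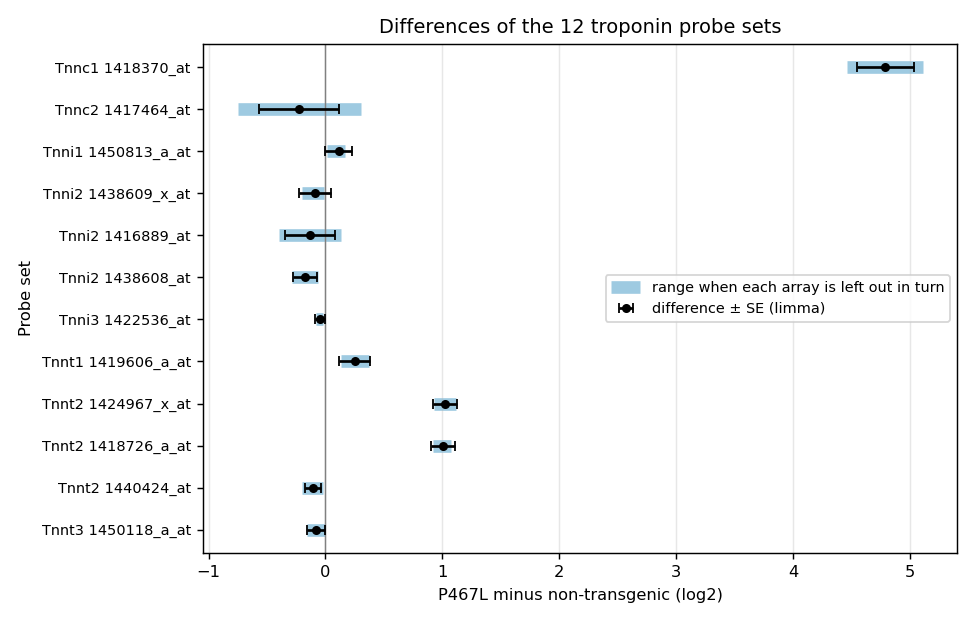
Difference between P467L and non-transgenic arrays (log2, horizontal axis) for each troponin probe set; points are the limma estimates, black bars ± 1 SE (3 against 2 arrays), and blue bars the range when each array is left out in turn. Tnnc1 lies between 4.46 and 5.11 in every such fit, the upper Tnnt2 probe set between 0.93 and 1.12, and Tnnc2 spans 0.

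In the fit across all probe sets, limma called 0 of the 12 troponin probe sets at a Benjamini-Hochberg adjusted p of 0.05, where 0.00% of all 45037 were called and 3353 lay under an unadjusted p of 0.05. The groups did not overlap in 3 of the 12 troponin probe sets, all higher in P467L. The same held for 18.9% of all probe sets, 11.2% higher and 7.61% lower. The family was chosen on this comparison, so nothing is read from these counts. Of the probe sets whose groups were apart 59.6% were higher; median centring of the arrays moved that share to 86.6%. The median difference over the 12 was -0.07, beside 0.00 over all probe sets.

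The genes next to Tnnc1 and Tnnt2 on the chromosome were compared, to see whether the difference extended past the gene. Order was taken from the GRCm38.p6 gene table, and each gene was read from its brightest probe set, here and in the lists that follow. Sema3g, a class 3 semaphorin that lies directly after Tnnc1, read 6.74 and 6.77 on the non-transgenic and 7.74, 7.38 and 7.55 on the P467L arrays, a difference of 0.80 (SE 0.12). Nisch, which lies directly before Tnnc1 and encodes an integrin-binding protein, measured 0.18 (SE 0.04), and Nt5dc2, 3 genes before it, 0.42 (SE 0.11). In these 3 neighbours all P467L arrays lay above both non-transgenic ones. Stab1, a scavenger receptor, Phf7 and the deubiquitinase Bap1 measured 0.01, 0.05 and 0.04 with overlapping groups. None of the 6 was called, with adjusted p from limma of 0.313 for Sema3g and above it for the others.

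Tnnt2 lies in a cluster with Tnni1, with Lad1 between them. Lad1, which encodes the basement membrane protein ladinin, read 5.77 and 5.79 against 5.51, 5.51 and 5.10, a difference of -0.41 (SE 0.15) in the opposite direction to Tnnt2. Phlda3 and Tmem9 measured 0.25 (SE 0.12) and 0.18 (SE 0.12), and the plakophilin Pkp1 -0.10 (SE 0.06). The groups did not overlap in 3 of these 4 neighbours, higher in Phlda3 and Tmem9 and lower in Lad1. Igfn1 had no probe set of its own. Of the 29 measured neighbours of all 8 troponin genes, 0 were called and 0 differed by 1 log2 unit or more. Their groups did not overlap in 13, which is 44.8%, 12 higher and 1 lower, against 22.7% of the 18194 genes read by 1 probe set each, 16.1% higher and 6.55% lower. The smallest p among the neighbours of the other troponin genes were those of Nav1, a neighbour of Tnni1, at 0.39 (SE 0.08), and Igf2, a neighbour of Tnnt3, at 0.54 (SE 0.15), with adjusted p of 0.451 and 0.536 from limma.

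**Figure D3:**
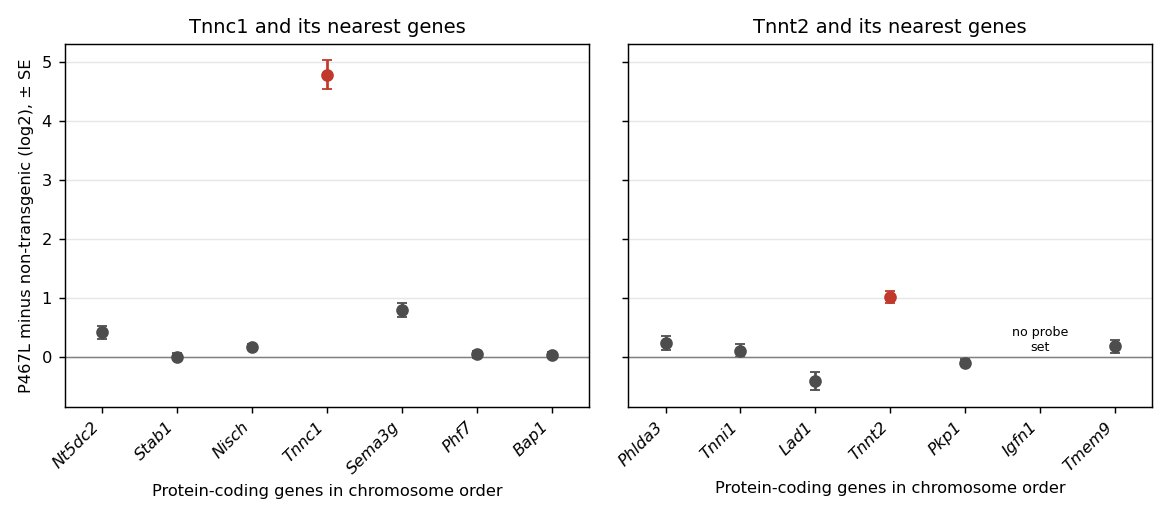
Difference between P467L and non-transgenic arrays (log2, vertical axis, ± 1 SE) for Tnnc1, left, Tnnt2, right, and the 3 nearest protein-coding genes on each side, in chromosome order. Tnnc1 at 4.79 stands above its neighbours, of which Sema3g at 0.80 is the highest; Tnnt2 at 1.02 lies beside Lad1 at -0.41 and Pkp1 at -0.10.

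The thin filament partners of troponin are actins, tropomyosins and the proteins that cap or measure the filament. Of 20 measured genes of this list 0 were called, and the median difference was 0.04 against 0.02 over all 18194 genes. The groups were apart in 5, which is 25%, all higher, against 22.7% of all genes, of which 16.1% were higher. Lmod3, a leiomodin that nucleates actin in skeletal muscle, read 5.17 and 5.11 against 5.76, 5.55 and 5.59, a difference of 0.49 (SE 0.08) at levels below the olfactory receptor mark. Tropomyosins, to which troponin T binds, were bright in both groups: Tpm4 measured 0.24 (SE 0.07) from 11.8 in the non-transgenic mean, and Tpm2 0.10 (SE 0.04) from 14.5. Capzb, a capping protein subunit, measured 0.20 (SE 0.09). Cardiac actin, Actc1, the partner of Tnnc1 and Tnnt2 in heart muscle, read 7.93 and 7.51 against 7.46, 7.30 and 7.51, a difference of -0.30 (SE 0.15) with overlapping groups.

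The calcium switch of smooth muscle itself gave small differences. Of 20 listed genes 16 were measured, with no calmodulin gene among them. Of the 16, 0 were called, the median was -0.03, and the groups were apart in 4, 3 higher and 1 lower. That is 25%, near the 22.7% of all genes. Smoothelin, Smtn, measured 0.16 (SE 0.04), the smoothelin-like Smtnl1 0.20 (SE 0.05), the kinase Dapk3, which phosphorylates myosin light chain, 0.26 (SE 0.08), and Ppp1r12b, a targeting subunit of myosin phosphatase, -0.16 (SE 0.06). Smtnl1 read below the olfactory receptor mark on all arrays. Rock1 had the difference of largest size, -0.30 (SE 0.44), with overlapping groups and its lowest value, 11.52, in P467L replicate 1.

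Markers of heart and skeletal muscle were compared on the same arrays. The 29 measured cardiac markers summed to 14175 and 14440 on the non-transgenic and to between 12959 and 13806 on the P467L arrays, as linear RMA values. The small heat shock protein gene Hspb7 made up 50% of the summed signal and Tcap, the titin cap of the Z-disc, 22.8%. Tcap read 11.63 and 12.07 against 11.10, 11.64 and 11.46, a difference of -0.45 (SE 0.22) with overlapping groups. With all 29 genes the P467L sums lay below both non-transgenic ones. Without Tcap the sums were 10140.3 to 11005 on the non-transgenic and 10562 to 10764 on the P467L arrays, which overlap. Without Hspb7 they were 7474 to 7599 on the non-transgenic and 6118 to 6624 on the P467L arrays, which do not overlap. Cox8b made up 3.72% of the summed signal. Without it the sums were 13277 to 14107 on the non-transgenic and 12390.5 to 13497 on the P467L arrays, which overlap. The median difference of the 29 markers was -0.02, with 0 called, and the groups were apart in 3, or 10.3%, against 22.7% of all genes. Myoz2, a Z-disc protein, was lower at -1.18 (SE 0.08), while Hrc, a calcium-binding protein of the sarcoplasmic reticulum, measured 0.73 (SE 0.16) and Pln, which restrains the calcium pump of that store, 0.68 (SE 0.21). The α-myosin heavy chain Myh6 read 6.10 and 5.11 against 6.42, 6.05 and 6.83, a difference of 0.83 (SE 0.40) with overlapping groups. Over the 29 markers 12 differences were positive and 17 negative. The atrial light chains Myl7 and Myl4 measured 0.37 (SE 0.19) and 0.10 (SE 0.11), and the cardiac T-box factor Tbx20 0.43 (SE 0.27), each with overlapping groups and above the olfactory receptor mark. Further single genes lay below that mark in both groups: the ventricular light chain Myl2 read 4.32 to 4.33 on all 5 arrays, the atrial peptide Nppa 4.10 to 4.16 and the slow myosin heavy chain Myh7 4.90 to 5.23. In 9 of the 29 cardiac markers both group means lay at or below that mark.

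The 30 skeletal muscle markers summed to 3794 and 4751 on the non-transgenic and to between 4278 and 6108 on the P467L arrays, which overlap. Their median difference was 0.00, with 0 called, and the groups were apart in 4, or 13.3%, all higher, against 22.7% of all genes. Ckm, the muscle creatine kinase, read 7.67 and 7.09 against 9.08, 8.77 and 8.27, a difference of 1.33 (SE 0.32). Pygm, the muscle glycogen phosphorylase, measured 0.42 (SE 0.11), Eno3 0.17 (SE 0.08), and Myf6, a myogenic factor near 4.5 on all arrays, 0.08 (SE 0.04). The fast myosin heavy chain Myh4 ran from 4.25 to 4.32 and the fast light chain Mylpf from 5.98 to 6.30, with no separation. Over the 30 genes 15 differences were positive and 15 negative. The lowest were Atp2a1 at -0.44 (SE 0.24) and Pvalb at -0.33 (SE 0.23), with overlapping groups. Both read highest on non-transgenic replicate 1, at 6.85 and 6.70. In 19 of the 30 both group means lay at or below the olfactory receptor mark. The part of the cardiac and skeletal muscle markers in the troponin differences was not tested.

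Markers of other cell types that the sample could hold were read in the same way. The 8 adipocyte markers had overlapping groups in every gene, with Fabp4 at -0.59 (SE 0.32) and Cidea at -0.40 (SE 0.31), and their median difference turned from -0.46 without non-transgenic replicate 2 to 0.32 without non-transgenic replicate 1. Ucp1 and Lipe measured -0.44 (SE 0.71) and 0.12 (SE 0.24). Of 10 endothelial markers 6 had groups apart, 4 higher and 2 lower, which is 60% against 22.7% of all genes, and 0 were called. Over all genes 16.1% were higher and 6.55% lower. Emcn measured -1.05 (SE 0.12), Cldn5 0.73 (SE 0.12), Ecscr 0.29 (SE 0.06) and Tie1 0.25 (SE 0.08). Pecam1, Cdh5, Tek and Kdr measured -0.09, 0.04, 0.02 and -0.08. Among the 12 contractile smooth muscle markers 5 had groups apart, which is 41.7%, and 0 were called: desmin, Des, measured 0.81 (SE 0.13), Kcnmb1 0.13 (SE 0.07) and Itga8 -0.12 (SE 0.07). The stomach markers Chia1, Pgc, Cblif and Atp4a measured -3.10 (SE 1.37), -2.17 (SE 1.00), -1.71 (SE 0.93) and -1.87 (SE 1.12), each with its highest value in non-transgenic replicate 2. The part of these shifts in the troponin differences was not tested.

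**Figure D4:**
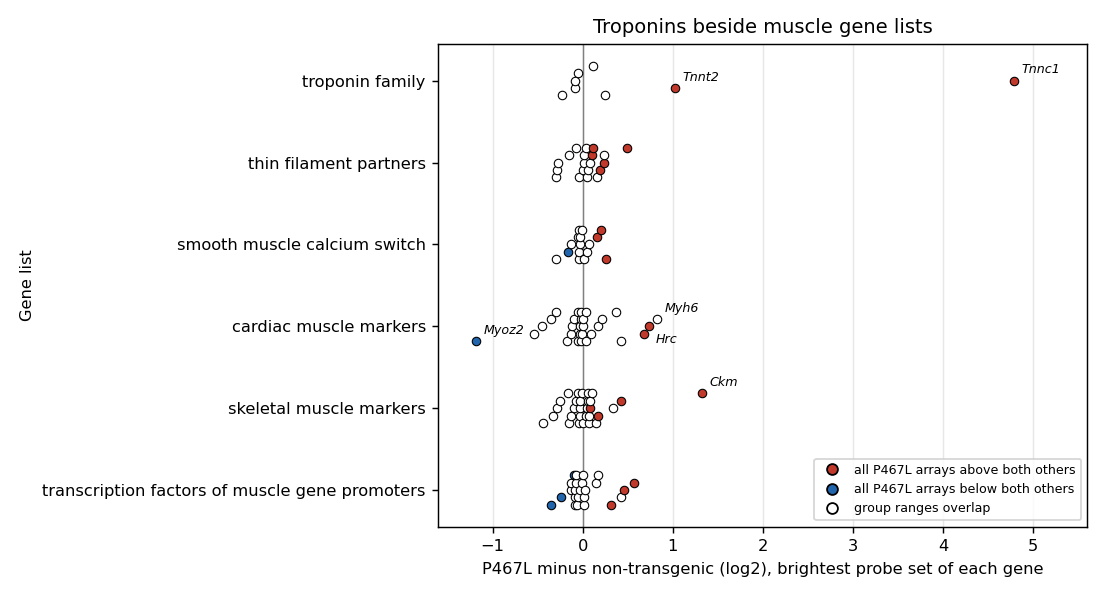
Difference between P467L and non-transgenic arrays (log2, horizontal axis) for each measured gene of 6 lists, read from its brightest probe set; red points are genes with all P467L arrays above both non-transgenic ones, blue points those below, and white points overlap. Points are spread vertically for legibility. Tnnc1 at 4.79 lies apart from every other gene shown, and Tnnt2 at 1.02 is exceeded in the other lists by Ckm at 1.33 and, in the opposite direction, Myoz2 at -1.18.

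Transcription factors that act on muscle gene promoters were listed because the family is controlled by them in heart and skeletal muscle. Of 24 measured genes 0 were called, and the groups were apart in 6, 3 higher and 3 lower, with a median difference of -0.04. That share is 25%, near the 22.7% of all genes. Hand2, a cardiac and vascular bHLH factor, read 7.71 and 7.74 against 8.39, 8.15 and 8.34, a difference of 0.57 (SE 0.09). Tead2, a factor of the family that binds the M-CAT element, read 7.08 and 7.13 against 7.74, 7.42 and 7.53, a difference of 0.46 (SE 0.11). The other TEAD genes, singled out after their values were seen, measured -0.05 for Tead1, 0.15 for Tead3 and -0.08 for Tead4, with overlapping groups. Gata6, a factor of vascular smooth muscle, measured -0.24 (SE 0.07), and Myocd, the coactivator of smooth muscle genes, -0.36 (SE 0.15). Adjusted p from limma was 0.320 for Hand2 and 0.487 for Tead2.

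The genes most like Tnnc1 and Tnnt2 over the 5 arrays were taken by Pearson's r among 624 other genes whose values spanned at least 1 log2 unit. For Tnnc1 these were the anion exchanger Slc26a3 (r = 0.998), the calcium-stimulated adenylyl cyclase Adcy1 (0.995), the adhesion protein Amigo2 (0.994), the cytolinker Eppk1 (0.993) and 1700120C14Rik (0.992). Their differences ran from 0.89 for Amigo2 to 1.36 for Adcy1, well under that of Tnnc1. Adcy1 read 7.12 and 6.73 against 8.28, 8.37 and 8.21. For Tnnt2 they were the kinase-anchoring protein Sphkap (0.997), the calcium-stimulated phosphodiesterase Pde1c (0.997), the adhesion receptor Adgrg6 (0.995), the small GTPase Rasl10b (0.993) and the Rac activator Tiam2 (0.990). Sphkap read 8.46 and 8.21 against 10.08, 10.02 and 10.25, a difference of 1.78 (SE 0.11), and Pde1c 5.43 and 5.21 against 7.03, 7.03 and 7.31. Over 5 arrays in 2 groups such an r mostly restates the gap between the groups, and 55 of the 624 genes had an r over 0.95 with Tnnc1 and 43 with Tnnt2. No test was made of these values.

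**Figure D5:**
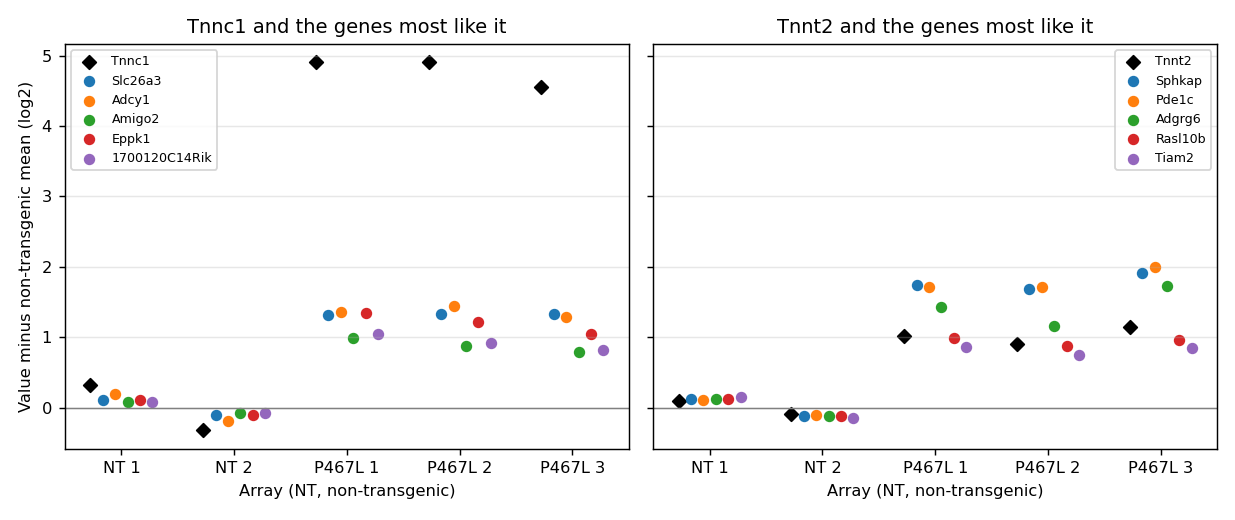
Values minus the non-transgenic mean (log2, vertical axis) on each array for Tnnc1, left, Tnnt2, right (black diamonds), and the 5 genes most like each by Pearson's r over the 5 arrays (colored points). The genes like Tnnc1 share the sides of the 2 groups but differ by 0.89 to 1.36, against 4.79 for Tnnc1.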

How the data were processed

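RNA of 5 pools of thoracic aorta was measured on 5 arrays. The deposited values are log2. Per the submitters' processing notes the authors used RMA and Affymetrix Power Tools, with no version stated there. RMA includes a quantile normalization, which can remove a shift common to most transcripts; medians of the deposited values still ran from 6.17 to 6.25 over the arrays. Values carried 2 decimals and ran from 3.03 to 14.99; their number of arrays limits the precision.

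The 64 control probe sets were left out. Of 45037 probe sets 34945 had 1 gene, 932 several and 9160 none in the annotation table; symbols were updated through gene numbers of GRCm38.p6. The comparison of genotypes used lmFit and eBayes of limma 3.58.1 (R 4.3.3), two-sided and without covariates, on 4.23 degrees of freedom. P-values of all 45037 probe sets were adjusted together by Benjamini-Hochberg, with 0.05 as the limit. Differences are P467L minus non-transgenic, with the moderated SE. The fit was tested on simulated data that gave every probe set the same spread. That check does not give its power on the real data, where the spread differs between probe sets.

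Members, lists and rules were chosen with earlier results of these data known, and the promoter motifs after the values were seen. Named were all troponin probe sets, the 4 genes of smallest p per list, the 3 nearest genes on each side of Tnnc1 and Tnnt2 and the 2 of smallest p near the others, the 5 genes most like each, and Acta2, Myh11 and Tagln. Others named after their values were seen are Actc1, Tcap, Hspb7, Cox8b, Myl7, Myl4, Tbx20, Myl2, Nppa, Myh7, Myh4 and Mylpf. Further ones are Atp2a1, Pvalb, Rock1, Pecam1, Cdh5, Tek, Kdr and the TEAD genes other than Tead2. Alternatives were scalings, filters, variance models, array weights, the replicate block, thresholds, probe set choices and left-out arrays.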

Additional observations from a re-analysis of the deposited data

How the results depend on the processing

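Tnnc1 and Tnnt2, each by its brightest probe set, kept a positive difference in every alternative run. Tnnc1 ran from 4.46 to 5.11 with each array left out in turn and was 4.41 without non-transgenic replicate 2 and P467L replicate 1; both ends of the first range come from the non-transgenic arrays, 5.11 without replicate 1 and 4.46 without replicate 2. Tnnt2 ran from 0.93 to 1.12 with each array left out, and was 0.64 as the mean of its 3 probe sets, since the dim one is included. The count of probe sets called by limma was 0 with each array left out in turn and 0 with the dim filter, a second quantile normalization, or a variance trend. It was 10 with 1 probe set per gene and 15 with median centring, Tnnc1 among them each time, 17 at an adjusted p of 0.10, 2245 with array weights, whose estimate stopped before converging, and 283 with weights estimated gene by gene, an alternative chosen after seeing the data. Tnnc1 and 2 Tnnt2 probe sets were called under both weightings, beside 2245 and 283 of all 45037 probe sets. The cause was not tested. The family was chosen with these differences known, so nothing is read from these calls. Adjusted p of Tnnc1 ran from 0.00941 to 0.746 over the alternatives, the highest without P467L replicate 2. Troponin probe sets with groups apart numbered 5 with median centring, where 31.4% of all probe sets were apart, 3 to 8 with each array left out, where 23.2% to 39.7% were, since fewer arrays remain to overlap, and 8 without both arrays that stood apart, where 56.7% were.

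The replicate numbers 1 and 2 are shared by the genotypes in the labels. With the replicate block the count called was 0, Tnnc1 measured 4.91 and Tnnt2 0.96, and P467L replicate 3, which has no partner, drops out of the estimate. Deviations from the group means, taken over all probe sets, correlated at 0.11 for number 1 and 0.01 for number 2. The deviations of the 2 non-transgenic arrays mirror each other, so these are not separate checks. Whether samples of one number share more than the number was not tested.

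Of the other troponin differences 106 stayed within 1 SD of the value reported and 14 did not; for list medians these were 52 and 20.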
